A study of Homo sapiens with 8 samples.

Results

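The integrated stress response and the unfolded protein response were followed through 39 genes in drug-free ovarian cancer cells. The 39 genes were taken by symbol from a deposited table of reads per gene that holds 32803 symbols, and all were found. All 39 were among the 16221 genes that passed the filter on low counts and were tested. They comprise 4 kinases that phosphorylate the translation factor eIF2alpha, an ATF4 arm of 20 genes (ATF4, partner transcription factors, and target genes), and 3 sensors and factors of the unfolded protein response. The others are 9 chaperones and folding enzymes of the endoplasmic reticulum (ER), and 3 genes of ER-associated degradation. The study set UWB1.289, a human ovarian carcinoma line without functional BRCA1, and UWB1.289+BRCA1, into which BRCA1 had been put back, beside a derivative of each that had become resistant to PARP inhibitors (Olres-UWB1.289 and Olres-UWB1.289+BRCA1). Each of the 4 groups held 2 RNA-seq libraries (n = 2 for every value). The BRCA1-deficient pair was taken at passage 29 (parental) and passage 56 (resistant). The BRCA1-proficient pair was taken at passage 10 (parental) and passage 45 (resistant). All 4 lines were cultured without drug. Resistance rose together with passage in both backgrounds, so the share of each in a difference between resistant and parental cells cannot be told apart. Each group is 1 line, and whether a resistant line is a single clone is not given in the sources used here. Nothing says that the libraries of a group came from separate cultures, so p-values measure the spread between these libraries, which may be technical.

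In the integrated stress response, kinases that sense different stresses phosphorylate eIF2alpha. PERK responds to ER stress, GCN2 to amino acid shortage, PKR to double-stranded RNA, and HRI to heme shortage and mitochondrial stress. General translation then falls while the ATF4 message is translated more, and ATF4 protein switches on genes of amino acid synthesis, transport and stress adaptation. The unfolded protein response adds the sensors IRE1 (encoded by ERN1), which activates XBP1 by splicing its message, and ATF6, and these raise ER chaperones and degradation factors. Since ATF4 is controlled largely through translation, its messenger level is not a measure of its activity.

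The libraries held 24094821 to 34394107 counts, so even the lowest member, ASNS, was read 29 to 124 times per library. BRCA1 itself stood at 36.0 and 35.1 CPM, the counts scaled to library size, in parental and 34.7 and 34.8 in resistant deficient libraries. It was at 212 and 191 in parental proficient and at 2176 and 2365 in resistant proficient libraries, so the counts matched the labelled BRCA1 state. BRCA1 was thus also far higher in resistant than in parental cells, in the proficient background alone. Comparisons that use the resistant proficient libraries carry this change as well, and its part in the results below was not tested. Of 10 markers of ovarian carcinoma epithelium, the summed level was 3822 to 8236 CPM in every library. WT1 stood at 0.276 CPM or less outside the resistant proficient group, where it was 7.84 and 9.16. The sums of 6 stromal fibroblast markers (4.40 to 58.0 CPM, with 4 of 6 under 1 CPM everywhere) were low. COL1A2 was at 28.1 to 56.1 CPM except in resistant deficient libraries, where it was at 1.30 and 0.723 and COL1A1 at 8.46 and 3.61. The sums of 5 leukocyte markers (7.87 to 24.7 CPM) and 4 endothelial markers (2.73 to 45.3 CPM) were low too. CDH5 was at 33.8 to 39.6 CPM in deficient and 0.484 to 1.94 CPM in proficient libraries. MUC16 was at a mean of 84.3 CPM in parental and 821 CPM in resistant proficient libraries, and at 215 and 246 CPM in deficient ones. CD68 was at 13.2 to 16.5 CPM in deficient and 0.874 to 3.01 CPM in proficient libraries. COL1A2, CDH5, MUC16 and CD68, among other markers, differed between groups, and their part in the results below was not tested. These are bulk RNA samples, in which fewer cells with a message and less message per cell cannot be told apart. GC content of the transcripts moved with 3 of the 4 group comparisons. Over 15549 genes, Spearman's rho between GC content and log2 fold change was 0.457 for resistant against parental deficient cells and 0.0826 for resistant against parental proficient cells. It was -0.442 for proficient against deficient parental cells and -0.516 for proficient against deficient resistant cells. The median GC content was 56.8% over the ATF4 arm and 45.8% over the ER chaperones, against 48.1% over all genes with a value. A fit with each library's GC trend removed is therefore given beside fold changes and medians that it turns, ends or moves by over 1.5 times, under the name GC-corrected.

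The promoters of the arms differed in the response elements found. In the 250 bases before the RefSeq start of each gene (assembly GRCh38.p14), windows existed for 35 of the 39 genes and were lacking for ALDH1L2, EIF2AK1, PSPH and SHMT2. The ER stress response element, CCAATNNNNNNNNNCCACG on either strand, was found in 5 of 12 ER chaperone and degradation genes (HSPA5, HSP90B1, PDIA6, CALR and CANX) and in XBP1. None of the 17 ATF4-arm genes with a window held it, and 0.0916% of all 27305 genes in the promoter table did. The shorter ER stress response element II, ATTGGNCCACG, was found in HERPUD1 and SDF2L1 and in 0.0659% of all genes. The C/EBP-ATF element through which ATF4 is known to act, TGATGNAA, was found in 3 of 17 ATF4-arm genes (ASNS, ATF3 and CHAC1) and in HERPUD1, against 3.89% of all genes. The element TGACGTGG, bound by XBP1 and ATF6, was found in 0 members and in 0.780% of all genes. No overlap between matches of different elements was seen in the stretches printed here. A match is a description of letters and not a measured binding site, and a missing match says only that these letters are not in this window. The stretches below carry the matches in capitals with 20 bases on each side, each 5′ to 3′ on the strand of its gene. They are shown because HERPUD1 holds an element of each arm and because genes that share the first element moved differently, as described further on.
HSPA5, chr9:125241371-125241429, minus strand: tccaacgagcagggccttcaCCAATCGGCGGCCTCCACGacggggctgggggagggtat
HSP90B1, chr12:103930196-103930359, plus strand: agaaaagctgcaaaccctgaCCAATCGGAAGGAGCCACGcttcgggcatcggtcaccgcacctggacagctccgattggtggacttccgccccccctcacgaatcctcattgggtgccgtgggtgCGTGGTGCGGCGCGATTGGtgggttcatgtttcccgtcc
PDIA6, chr2:10812833-10812891, minus strand: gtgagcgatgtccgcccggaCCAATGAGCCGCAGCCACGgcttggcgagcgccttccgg
CALR, chr19:12938364-12938422, plus strand: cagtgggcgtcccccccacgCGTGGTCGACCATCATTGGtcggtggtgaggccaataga
CANX, chr5:179698758-179698816, plus strand: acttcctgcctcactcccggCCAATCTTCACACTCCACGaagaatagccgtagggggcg
XBP1, chr22:28800583-28800641, minus strand: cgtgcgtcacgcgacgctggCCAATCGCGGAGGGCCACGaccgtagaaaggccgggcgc
HERPUD1, chr16:56931946-56932055, plus strand: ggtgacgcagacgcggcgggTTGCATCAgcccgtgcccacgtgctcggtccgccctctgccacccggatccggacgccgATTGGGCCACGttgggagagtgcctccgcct
ATF3, chr1:212565196-212565243, plus strand: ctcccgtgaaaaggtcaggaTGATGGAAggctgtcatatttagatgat
CHAC1, chr15:40953242-40953289, plus strand: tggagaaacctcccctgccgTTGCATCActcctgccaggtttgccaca
ASNS, chr7:97872449-97872496, minus strand: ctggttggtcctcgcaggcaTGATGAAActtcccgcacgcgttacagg
In the second capital run of HSP90B1, in CALR, and in the first capital run of HERPUD1 and in CHAC1, the element lies on the opposite strand and is printed as its reverse complement.

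In resistant BRCA1-proficient cells most of the ATF4 arm was lower than in their parental cells. Of its 20 genes, 17 fell, 12 of them at least 2-fold, 1 rose (VLDLR) and 2 did not pass the test (ATF4 and PHGDH). The median log2 fold change of the arm was -1.22. Of the 9 ER chaperones, 5 fell and 1 rose, with a median of -0.23. Over all 39 genes, 29 fell and 3 rose, where 27.8% of all genes tested were called lower and 25.9% higher, with a median of -0.00 over all genes. In resistant BRCA1-deficient cells 8 of 20 ATF4-arm genes fell and 3 rose, with a median of -0.09. There, 7 of 9 ER chaperones fell and 2 rose, with a median of -0.48. In all, 23 of the 39 genes fell and 5 rose, against a background of 27.0% lower and 28.9% higher and a median of 0.03 over all genes. A gene rose or fell where its p from the quasi-likelihood test of edgeR, adjusted over all genes tested, was under 0.05. Fold changes below are on the log2 scale, resistant over parental, with the standard error. GC-corrected, 12 ATF4-arm genes fell and 3 rose in the deficient cells, with a median of -0.33. In the proficient cells 18 fell and 1 rose, with a median of -1.25. The GC-corrected shares of all genes were 24.03% lower and 33.96% higher in deficient cells, and 29.99% lower and 31.98% higher in proficient cells. Without replicate 1 of the resistant deficient cells the ATF4-arm median in the deficient background was -0.21, and without replicate 2 it was -0.06.

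**Figure D1:**
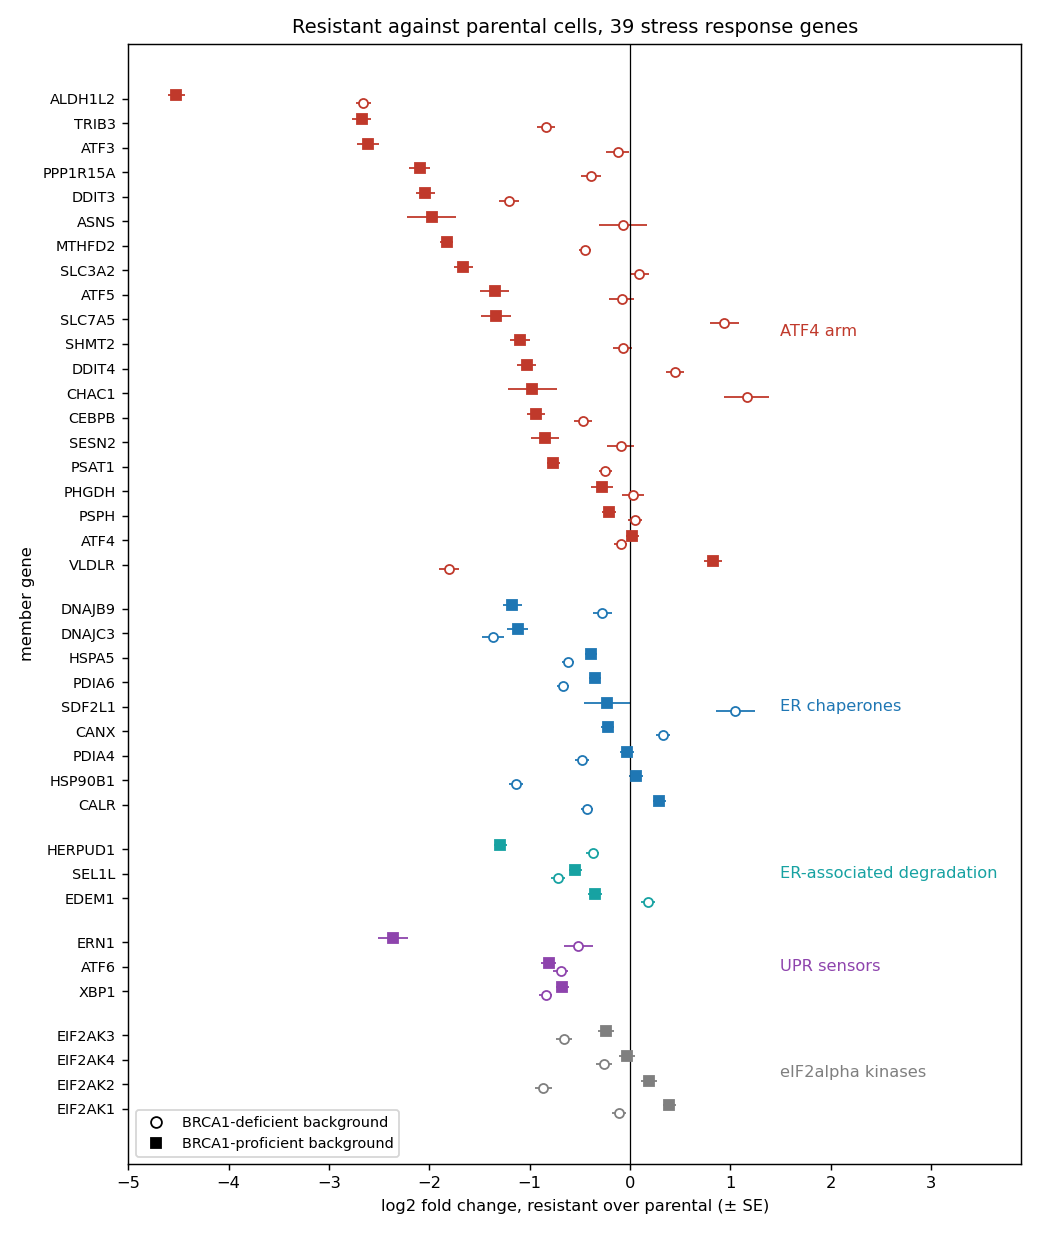
Log2 fold change (x axis, resistant over parental, bars are the standard error) of the 39 genes, ordered by arm (y axis), in the BRCA1-deficient (open circles) and BRCA1-proficient (filled squares) background, 2 libraries a group. ATF4-arm squares lie below 0 except those of ATF4 and VLDLR, down to -4.52 for ALDH1L2, while open circles of the arm lie on both sides of 0.

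Of the 4 eIF2alpha kinases, 3 fell in the deficient background, where 27.0% of all genes were lower. In the proficient one 1 rose and 1 fell, near the shares of all genes (25.9% higher and 27.8% lower). EIF2AK2, which encodes PKR, was at 296 and 304 CPM in parental and 156 and 174 in resistant deficient libraries, and at 258 and 229 in parental and 264 and 292 in resistant proficient libraries. The deficient libraries did not overlap, and EIF2AK2 fell there (-0.86 ± 0.08, edgeR adjusted p = 8.53e-06; GC-corrected -0.51). Its difference in proficient cells did not pass (0.19 ± 0.08, edgeR adjusted p = 0.0686), but was called higher under 12 of 16 alternatives. These were GC-corrected (0.29), 6 other settings (0.20 to 0.24), and the fits without parental deficient replicate 2 or either resistant deficient replicate (0.23 each), parental proficient replicate 1 or resistant proficient replicate 1 (0.31 each). EIF2AK3, which encodes PERK, stood at 31.1 and 32.3 CPM in parental and 19.6 and 20.5 in resistant deficient libraries, and at 84.8 and 91.1 in parental and 73.7 and 75.5 in resistant proficient libraries. It was lower in both resistant lines without overlap, at -0.66 ± 0.08 in deficient cells (GC-corrected -0.40) and -0.24 ± 0.08 in proficient cells. The second call (edgeR adjusted p = 0.0213) was lost GC-corrected (-0.17), under 3 other settings and without any one of 5 libraries. These were parental deficient replicate 2 (-0.19), either parental proficient replicate (-0.26 and -0.19) or either resistant proficient replicate (-0.17 and -0.22). EIF2AK4, which encodes GCN2, was at 133 and 128 CPM in parental and 102 and 116 in resistant deficient libraries and at 91.9 and 88.0 against 84.3 and 91.9 in proficient ones. Its fall in deficient cells (-0.26 ± 0.08) did not pass GC-corrected (-0.07), without parental replicate 1 (-0.24) or without resistant replicate 1 (-0.20), and proficient libraries overlapped. EIF2AK1, which encodes HRI, was at 209 and 213 CPM against 188 and 203 in deficient and at 253 and 236 against 313 and 329 in proficient libraries. It was the 1 kinase that rose in resistant proficient cells (0.39 ± 0.07, edgeR adjusted p = 0.000408), and in deficient cells it did not pass (-0.11 ± 0.07; GC-corrected 0.10; past the threshold, at -0.19, without resistant deficient replicate 2).

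The message of ATF4 itself did not pass the test in either resistance comparison. It was at 356 and 360 CPM in parental deficient, 330 and 341 in resistant deficient, 314 and 320 in parental proficient and 339 and 305 in resistant proficient libraries, with overlap in the proficient background. The changes were -0.09 ± 0.06 in deficient and 0.02 ± 0.06 in proficient cells (GC-corrected -0.031), although ATF4 was called lower in deficient cells GC-corrected (-0.39, edgeR adjusted p = 1.05e-05). Its partner DDIT3, which encodes the pro-apoptotic factor CHOP, fell in both backgrounds. DDIT3 was at 41.3 and 40.4 CPM in parental and 15.8 and 19.5 in resistant deficient libraries, and at 162 and 157 in parental and 39.1 and 38.5 in resistant proficient libraries. The change was -1.21 ± 0.10 in deficient cells and -2.04 ± 0.09 in proficient cells (edgeR adjusted p = 2.88e-08). ATF3, a repressor and activator induced by many stresses, fell in proficient cells. It was at 71.8 and 64.9 CPM in parental and 11.1 and 11.3 in resistant proficient libraries (-2.61 ± 0.11, edgeR adjusted p = 1.94e-08). It was at a mean of 11.9 ± 0.215 (SD) in parental and 10.9 ± 0.917 in resistant deficient libraries (-0.12 ± 0.11, not passed; GC-corrected 0.09, not passed). ATF5, a relative of ATF4 with mitochondrial targets, fell from 13.6 and 15.3 to 5.58 and 5.74 CPM in proficient cells (-1.35 ± 0.14) and did not pass in deficient cells (-0.08 ± 0.13; passed GC-corrected at -0.65). CEBPB, which pairs with ATF4 on DNA, fell in both, at -0.46 ± 0.09 in deficient cells (GC-corrected -1.59) and -0.94 ± 0.09 in proficient cells.

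Among feedback and effector targets, TRIB3, a pseudokinase that restrains ATF4 and CHOP, fell in both backgrounds. TRIB3 was at 90.9 and 82.0 CPM in parental and 52.2 and 44.8 in resistant deficient libraries, and at 301 and 305 in parental and 50.4 and 44.4 in resistant proficient libraries. It changed by -0.84 ± 0.09 in deficient cells (GC-corrected -1.48) and by -2.68 ± 0.10, or 6.39-fold, in proficient cells (edgeR adjusted p = 4.62e-09). Both resistant lines reached overlapping levels. PPP1R15A, which brings a phosphatase to eIF2alpha and so ends the response, was at 107 and 114 against 28.1 and 23.8 CPM in proficient libraries (-2.10 ± 0.10). It was at 33.3 and 34.9 against 27.8 and 24.4 in deficient ones (-0.39 ± 0.10; GC-corrected -0.86). SESN2, an inhibitor of mTORC1 signalling, fell in proficient cells (-0.85 ± 0.14) and did not pass in deficient cells (-0.09 ± 0.14; passed GC-corrected at -0.62). A pair of effector targets rose in resistant deficient cells and fell in resistant proficient cells. DDIT4, another mTORC1 inhibitor, changed by 0.45 ± 0.09 and -1.03 ± 0.09, its rise in deficient cells being absent GC-corrected (0.03). There it was at 213 and 222 CPM in parental and 328 and 266 in resistant libraries. CHAC1, which degrades glutathione, changed by 1.16 ± 0.22 (GC-corrected 0.35) and -0.97 ± 0.25, and its fall did not pass without resistant proficient replicate 2 (-0.75, edgeR adjusted p = 0.0601). CHAC1 was at 9.24 and 6.91 CPM in parental and 21.6 and 14.6 in resistant deficient libraries. VLDLR, a lipoprotein receptor, went the other way. It was at 35.7 and 33.8 CPM in parental and 9.25 and 10.6 in resistant deficient libraries, and at 56.2 and 51.9 in parental and 94.1 and 98.2 in resistant proficient libraries. It changed by -1.80 ± 0.10 in the first and 0.83 ± 0.09 in the second.

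**Figure D2:**
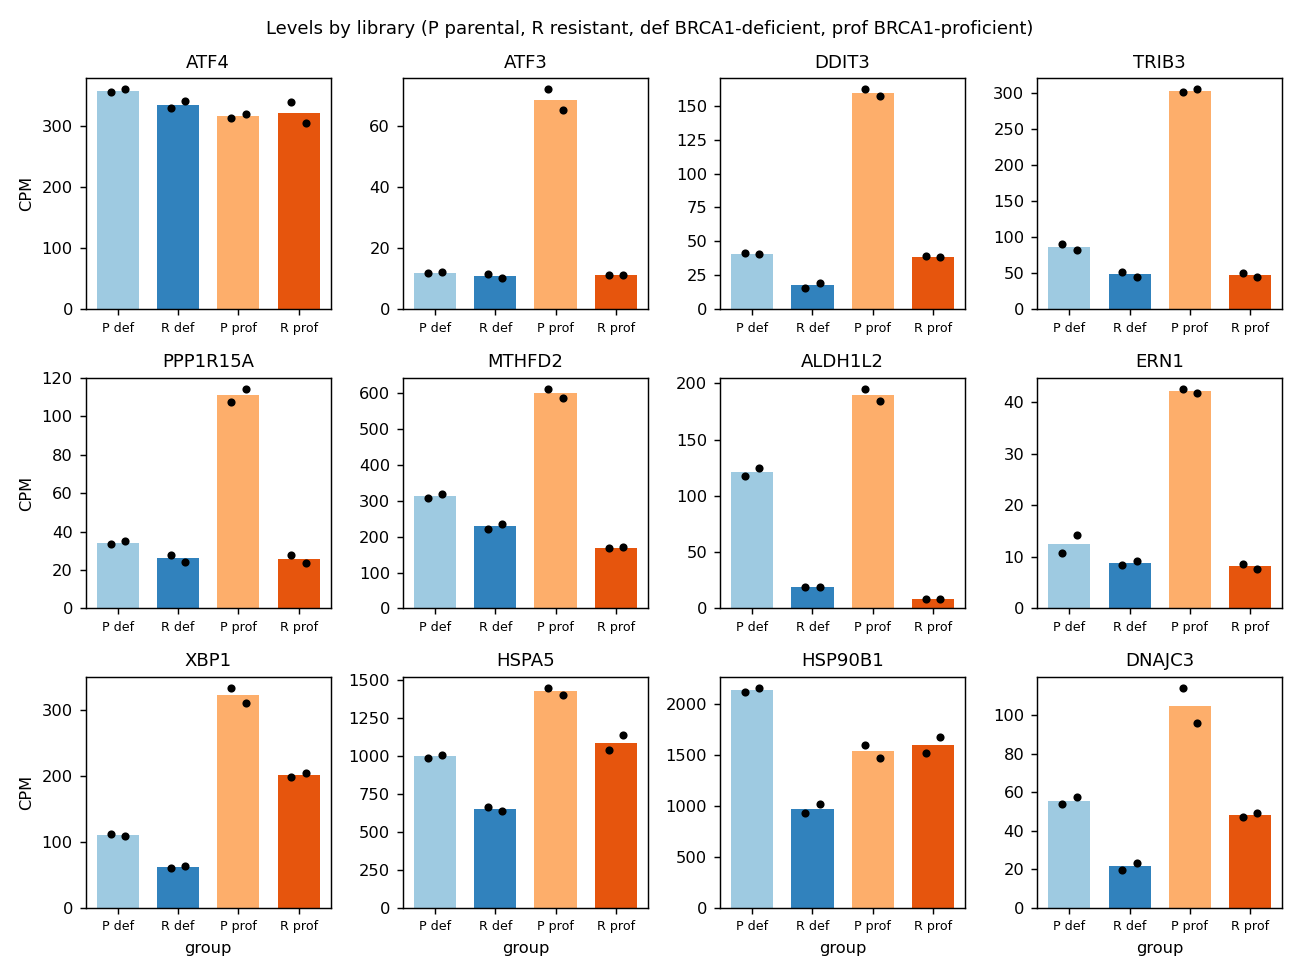
Level (y axis, CPM) of 12 of the 39 genes in parental (P) and resistant (R) BRCA1-deficient (def) and BRCA1-proficient (prof) cells, with points for the 2 libraries of a group and bars for their mean. ATF3, DDIT3, TRIB3, PPP1R15A and ERN1 are highest in parental proficient cells, and ATF4 stays between 305 and 360 CPM in all 8 libraries.

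Of the 7 enzymes of amino acid synthesis and mitochondrial folate metabolism, 6 fell in resistant proficient cells and 3 in resistant deficient cells. The shares of all genes called lower were 27.8% and 27.0%. ALDH1L2, a mitochondrial enzyme that turns formyl-tetrahydrofolate into NADPH and carbon dioxide, was at 118 and 125 CPM in parental and 19.0 and 19.4 in resistant deficient libraries, and at 195 and 184 in parental and 8.19 and 8.32 in resistant proficient libraries. Its fall was the largest of all 39 genes in both backgrounds, -2.66 ± 0.07 (6.32-fold, edgeR adjusted p = 2.11e-09) and -4.52 ± 0.08 (23.0-fold, edgeR adjusted p = 4.69e-11), with no overlap between parental and resistant libraries. MTHFD2, which acts on mitochondrial methylene-tetrahydrofolate, was at 306 and 318 CPM in parental and 221 and 236 in resistant deficient libraries, and at 611 and 585 in parental and 167 and 170 in resistant proficient libraries. It changed by -0.45 ± 0.06 (GC-corrected -0.14) and -1.83 ± 0.06 (edgeR adjusted p = 4.03e-09). SHMT2, the mitochondrial serine hydroxymethyltransferase, fell from 182 and 205 to 96.8 and 83.8 CPM in proficient cells (-1.10 ± 0.10) and did not pass in deficient cells (-0.07 ± 0.10; passed GC-corrected at -0.40). Of the serine synthesis enzymes, PSAT1 changed by -0.25 ± 0.06 in deficient cells, a call that GC correction ended (0.05), and by -0.76 ± 0.07 in proficient cells. PHGDH, the first enzyme of that pathway, passed in neither (0.03 ± 0.11, GC-corrected 0.013, and -0.28 ± 0.11, edgeR adjusted p = 0.0511 for the second). The second was past the threshold under 8 of 16 alternatives, among them GC-corrected at -0.32 and the fits without either resistant deficient replicate (-0.24 each) or resistant proficient replicate 1 (-0.42). PSPH, the last enzyme, was called lower in proficient cells (-0.21 ± 0.07, edgeR adjusted p = 0.0298) but lost the call under 10 alternatives. Among them were the fits without parental proficient replicate 1 (-0.13), without resistant proficient replicate 1 (-0.09) and without parental deficient replicate 2 or either resistant deficient replicate (-0.17 each). ASNS, asparagine synthetase, was at a mean of 4.64 ± 0.504 (SD) against 1.18 ± 0.0440 CPM in proficient libraries (-1.98 ± 0.24) and did not pass in deficient ones (-0.07 ± 0.24; GC-corrected 0.13). Its counts are uncertain, since the readthrough gene CZ1P-ASNS (4 to 58 counts per library) and the pseudogene ASNSP1 (53 to 384) are listed beside it. How reads shared between them were assigned is not given here.

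Both chains of the large neutral amino acid exchanger fell in resistant proficient cells. SLC3A2, its heavy chain, went from 237 and 244 to 81.7 and 70.2 CPM (-1.66 ± 0.10), and SLC7A5, its light chain LAT1, from 189 and 202 to 83.2 and 71.7 CPM (-1.34 ± 0.15). In deficient cells SLC7A5 rose from 200 and 181 to 433 and 299 CPM (0.94 ± 0.14; GC-corrected 0.26), and SLC3A2 did not pass (0.09 ± 0.09; GC-corrected it was called lower at -0.27).

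All 3 sensors and factors of the unfolded protein response fell in both backgrounds, where 27.0% (deficient) and 27.8% (proficient) of all genes were lower. ERN1, the gene of the IRE1 kinase and ribonuclease, was at 10.9 and 14.2 CPM in parental and 8.39 and 9.14 in resistant deficient libraries, and at 42.6 and 41.8 in parental and 8.71 and 7.66 in resistant proficient libraries. It changed by -2.36 ± 0.15 in proficient cells (5.15-fold, edgeR adjusted p = 2.71e-07). Its fall in deficient cells (-0.51 ± 0.15) did not pass without parental deficient replicate 2 (-0.34, edgeR adjusted p = 0.125). XBP1, the transcription factor activated by IRE1, was at 111 and 109 CPM in parental and 60.3 and 63.0 in resistant deficient libraries, and at 334 and 311 in parental and 199 and 205 in resistant proficient libraries. Its changes were -0.84 ± 0.07 (GC-corrected -0.54) and -0.68 ± 0.06. Those of ATF6, the cleaved membrane sensor, were -0.69 ± 0.08 (GC-corrected -0.39) and -0.81 ± 0.08. Counts per gene do not separate the spliced from the unspliced XBP1 message, so IRE1 activity was not measured.

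Of the 9 ER chaperones, 7 fell and 2 rose in the deficient background, and 5 fell and 1 rose in the proficient one. Of all genes, 27.0% were lower and 28.9% higher in the first, and 27.8% and 25.9% in the second. HSPA5, the BiP chaperone whose binding holds the sensors inactive, was at 990 and 1006 CPM in parental and 663 and 638 in resistant deficient libraries, and at 1450 and 1404 in parental and 1041 and 1137 in resistant proficient libraries. It was lower in both resistant lines without overlap (-0.62 ± 0.06, GC-corrected -0.38, and -0.39 ± 0.06). HSP90B1, the ER form of HSP90, was at 2116 and 2157 CPM in parental and 931 and 1014 in resistant deficient libraries, and at 1595 and 1473 in parental and 1519 and 1672 in resistant proficient libraries. It fell in deficient cells (-1.14 ± 0.07, edgeR adjusted p = 5.29e-07) and did not pass in proficient cells, where the libraries overlapped (0.06 ± 0.07; GC-corrected it was called higher at 0.12). DNAJC3, a co-chaperone of BiP that also inhibits eIF2alpha kinases, was at 53.8 and 57.5 against 19.7 and 23.4 CPM in deficient and at 114 and 95.9 against 47.2 and 49.4 in proficient libraries. It fell in both (-1.37 ± 0.11 and -1.12 ± 0.11). DNAJB9, a co-chaperone that represses IRE1, was at 28.8 and 30.4 against 23.0 and 25.9 CPM in deficient and at 75.3 and 73.5 against 31.9 and 34.1 in proficient libraries. It fell in proficient cells (-1.17 ± 0.09, edgeR adjusted p = 1.29e-06). In deficient cells its fall (-0.27 ± 0.09) ended GC-corrected (0.04), with the DESeq2 Wald test (-0.26), with the 2 groups fitted alone (-0.30), without either parental deficient replicate (-0.32 and -0.27) and without resistant deficient replicate 1 (-0.22).

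PDIA6, a disulfide isomerase, was at 572 and 581 against 356 and 369 CPM in deficient and at 545 and 531 against 432 and 412 in proficient libraries, and fell in both (-0.67 ± 0.06, GC-corrected -0.43, and -0.35 ± 0.06). PDIA4, another isomerase, fell in deficient cells (-0.48 ± 0.07) and did not pass in proficient cells (-0.03 ± 0.07; GC-corrected -0.078). The lectin chaperones for glycoproteins moved in opposite directions. CALR, calreticulin, fell in deficient cells (-0.43 ± 0.06) and rose in proficient cells (0.29 ± 0.06), whereas CANX, calnexin, rose in deficient cells (0.33 ± 0.07; GC-corrected 0.63) and fell in proficient cells (-0.22 ± 0.07). The second CANX call did not pass with library totals alone (-0.17), without parental deficient replicate 2 (-0.18), without parental proficient replicate 1 (-0.15) or without resistant proficient replicate 1 (-0.13). SDF2L1, a partner of BiP, was at 9.87 and 8.03 against 21.0 and 16.1 CPM in deficient libraries (1.05 ± 0.19). That rise was absent GC-corrected (-0.03), and SDF2L1 did not pass in proficient libraries (-0.23 ± 0.23). The 5 chaperones with an ER stress response element in the stretches above thus included falls in both backgrounds (HSPA5, PDIA6), a call in 1 background (HSP90B1) and calls in opposite directions (CALR, CANX).

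The genes of ER-associated degradation, which removes misfolded proteins, all fell in resistant proficient cells, where 27.8% of all genes were lower. HERPUD1, a membrane scaffold of the degradation complex that holds elements of both arms in its promoter, fell in both backgrounds. It was at 135 and 129 CPM in parental and 98.1 and 106 in resistant deficient libraries, and at 279 and 277 in parental and 111 and 116 in resistant proficient libraries. Its change was -0.37 ± 0.07 (GC-corrected -0.20) and -1.29 ± 0.07 (2.45-fold, edgeR adjusted p = 5.75e-08). SEL1L, the adaptor of the HRD1 ligase, was at 154 and 152 against 89.6 and 96.7 CPM in deficient and at 404 and 374 against 259 and 275 in proficient libraries (-0.71 ± 0.07, GC-corrected -0.38, and -0.54 ± 0.07). EDEM1, which directs misfolded glycoproteins to degradation, was at 50.2 and 50.4 against 55.1 and 58.8 CPM in deficient and at 111 and 106 against 83.3 and 86.7 in proficient libraries. It fell in proficient cells (-0.35 ± 0.07) and did not pass in deficient cells (0.18 ± 0.07, edgeR adjusted p = 0.0506; it passed GC-corrected at 0.43, with RLE factors at 0.19 and with at least 1 CPM at 0.16).

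Set side by side, the comparisons in the deficient and proficient backgrounds, which share no library, both called 17 of the 39 genes lower, against 13.2% of all genes tested. A further 8 fell in proficient cells without passing in deficient cells (10.3% of all genes), and 4 fell in deficient cells without passing in proficient cells (8.76%). Another 4 rose in deficient and fell in proficient cells (CHAC1, DDIT4, SLC7A5 and CANX; 4.28% of all genes), and 2 did the reverse (VLDLR and CALR; 5.02%). The 1 member that rose in proficient cells without passing in deficient cells was EIF2AK1 (10.7% of all genes), and the 1 that rose in deficient cells without passing in proficient cells was SDF2L1 (14.5%). Neither test was passed by 2 members, ATF4 and PHGDH (23.1%), and no member rose in both (10.2%). These classes come from the uncorrected fit. GC-corrected, ATF4 was called lower in deficient cells (-0.39) and PHGDH lower in proficient cells (-0.32). In deficient cells DDIT4 (0.03), SDF2L1 (-0.03), PSAT1 (0.05), DNAJB9 (0.04) and EIF2AK4 (-0.07) lost their calls, as EIF2AK3 (-0.17) did in proficient cells. Some other members gained calls. Across the 39 genes, which are not independent replicates, Pearson's r between both fold changes was 0.242 and Spearman's rho 0.00486, and over all 16221 genes they were 0.247 and 0.272.

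**Figure D3:**
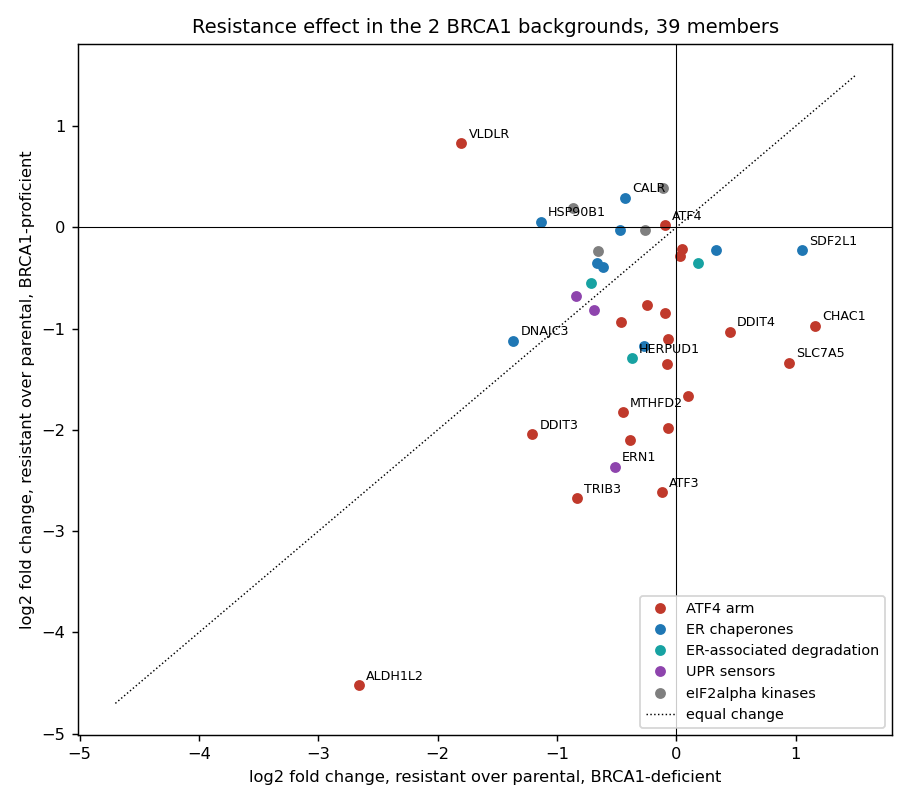
Log2 fold change, resistant over parental, of the 39 genes in the BRCA1-deficient (x axis) and BRCA1-proficient (y axis) background, coloured by arm, with a dotted line where both are equal. Most ATF4-arm genes lie below the line, ALDH1L2 is lowest on both axes (-2.66 and -4.52), and VLDLR of that arm lies furthest above the line. The ER chaperones lie on both sides, for example HSP90B1 and CALR above and SDF2L1, DNAJB9 and CANX below.

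The difference between the resistance effects, proficient minus deficient, was tested for each gene in the same fit. It was below 0 for 16 and above 0 for 1 (VLDLR) of the 20 ATF4-arm genes, with a median of -1.32 (GC-corrected 16 below, 3 above and -1.02). Of the 9 ER chaperones, 3 lay below and 4 above 0, with a median of 0.25 (GC-corrected 2 below, 3 above and 0.06; 0.42 without resistant deficient replicate 2). GC-corrected, 30.1% of all genes lay below and 23.5% above 0. Over all 39 genes 22 lay below and 8 above 0, against 25.3% and 21.4% of all genes tested and a median of -0.08 over all genes. Without resistant deficient replicate 2 the number above 0 was 13. The largest differences were 2.63 ± 0.13 for VLDLR (edgeR adjusted p = 1.00e-07) and -2.49 ± 0.16 for ATF3 (edgeR adjusted p = 6.10e-07). They were followed by -2.28 ± 0.20 for SLC7A5 and -2.14 ± 0.33 for CHAC1 (GC-corrected -1.33). Among ER genes it was 1.19 ± 0.10 for HSP90B1, -1.28 ± 0.30 for SDF2L1 (GC-corrected -0.14, not passed), -0.92 ± 0.09 for HERPUD1 and -0.90 ± 0.13 for DNAJB9. HSPA5 (0.23 ± 0.09, edgeR adjusted p = 0.0519), DNAJC3 (0.25 ± 0.15; GC-corrected 0.0053) and XBP1 (0.16 ± 0.09; turned GC-corrected to -0.072) did not pass. HSPA5 was past the threshold under 10 alternatives and not GC-corrected (0.06). The 10 include the fits without either resistant deficient replicate (0.33 and 0.27), parental proficient replicate 1 (0.31) or either resistant proficient replicate (0.37 and 0.23). DNAJC3 passed without resistant deficient replicate 2 (0.45). XBP1 passed with at least 1 CPM (0.23) and without resistant deficient replicate 2 or resistant proficient replicate 1 (0.27 each).

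The median of each arm was also taken by library, as the deviation of log2 CPM from each gene's mean over the 8 libraries. The ATF4-arm median was 0.45 and 0.53 in parental proficient and -0.65 and -0.73 in resistant proficient libraries, the highest and lowest of all. It was 0.08, -0.02, -0.08 and -0.11 in the deficient libraries, parental before resistant. The ER chaperone median was 0.24 and 0.31 in parental deficient, -0.39 and -0.34 in resistant deficient, 0.22 and 0.19 in parental proficient and -0.07 and -0.00 in resistant proficient libraries. In each background, parental and resistant libraries did not overlap for either arm. The degradation genes were at 0.96 and 0.93 in parental proficient, and 0.22 and 0.27 in resistant proficient libraries. They were at -0.35 and -0.36 in parental deficient and -0.55 and -0.44 in resistant deficient libraries, an order that neither other arm showed.

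**Figure D4:**
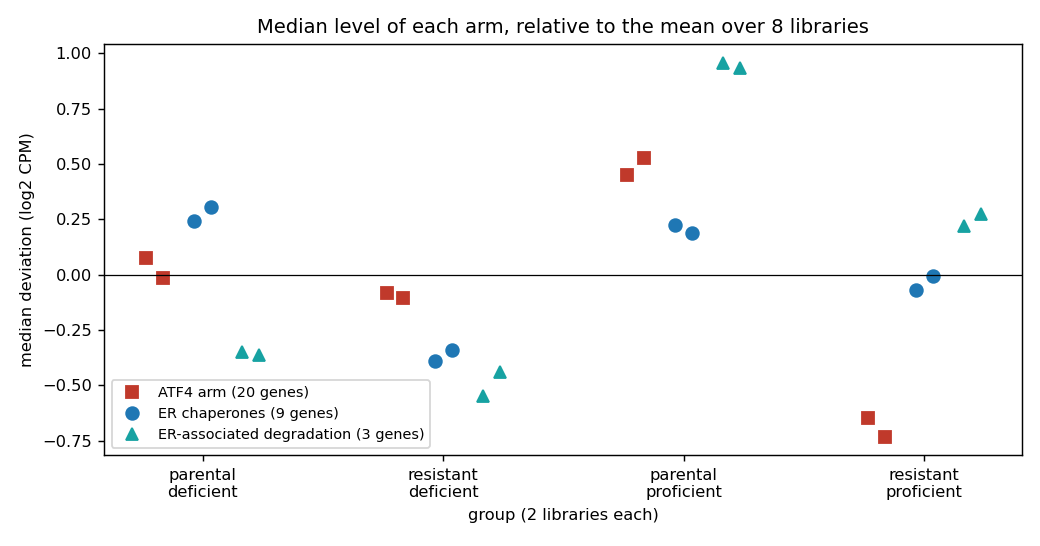
Median over the genes of an arm of the log2 CPM deviation from the mean of 8 libraries (y axis) in each library of the 4 groups (x axis), for the ATF4 arm (squares, 20 genes), ER chaperones (circles, 9 genes) and ER-associated degradation (triangles, 3 genes). ATF4-arm squares drop from 0.45 and 0.53 in parental proficient to -0.65 and -0.73 in resistant proficient libraries, and chaperone circles drop most in resistant deficient libraries.

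Parental proficient and deficient cells already differed, a comparison that shares its libraries with those above. BRCA1 state came together with passage, 29 in parental deficient and 10 in parental proficient cells. Between the resistant lines passage was 56 in deficient and 45 in proficient cells. The share of each in these differences cannot be told apart. In parental proficient against parental deficient cells, 24 of the 39 genes were higher and 10 lower, against 32.3% and 30.1% of all genes. The ATF4 arm had 12 higher and 4 lower (median 0.50; GC-corrected 15, 4 and 0.54), and the ER chaperones 4 and 4 (median -0.10; GC-corrected -0.33). GC-corrected, 26.6% of all genes were higher and 36.3% lower. All 3 sensors and all 3 degradation genes were higher. The most different were ATF3 (2.52 ± 0.11), DDIT3 (1.97 ± 0.09), TRIB3 (1.81 ± 0.09), ERN1 (1.75 ± 0.14), PPP1R15A (1.70 ± 0.10), XBP1 (1.55 ± 0.06) and EIF2AK3 (1.47 ± 0.08), all higher in proficient cells. In contrast, SDF2L1 (-1.46 ± 0.21; GC-corrected -0.78), ATF5 (-0.90 ± 0.13; GC-corrected -0.40) and PHGDH (-0.71 ± 0.11) were lower. ATF4 itself was called lower (-0.18 ± 0.06, edgeR adjusted p = 0.0336), a call that turned GC-corrected (0.16) and did not pass without any one of the 4 parental libraries (-0.21 to -0.18).

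In resistant proficient against resistant deficient cells the ATF4 arm lay on the other side, with 3 higher and 11 lower (median -0.40; GC-corrected 7 higher, 13 lower and -0.59). There, 7 of 9 ER chaperones were higher and 2 lower (median 0.38), a balance that GC correction turned to 3 higher and 4 lower (median -0.09). Over all 39 genes 17 were higher and 14 lower, which is near the background of 36.3% and 37.5%. The GC-corrected background was 29.2% higher and 43.9% lower. The levels of ATF3 (0.03 ± 0.12), TRIB3 (-0.03 ± 0.09), PPP1R15A (-0.01 ± 0.10) and ERN1 (-0.10 ± 0.15), several-fold apart between the parental lines, did not pass the test between the resistant lines. GC-corrected, however, ATF3 was called lower (-0.34) and TRIB3 (1.14) and PPP1R15A (0.88) higher in resistant proficient cells, and ERN1 alone of the 4 still did not pass (-0.20). VLDLR differed most (3.27 ± 0.10, higher in proficient cells; GC-corrected 2.66). SLC7A5 (-2.24 ± 0.15; GC-corrected -1.02), CHAC1 (-2.29 ± 0.24; GC-corrected -0.87) and ATF5 (-2.17 ± 0.14; GC-corrected -1.13) were lower in proficient cells. XBP1 (1.71 ± 0.07; GC-corrected 1.03), EIF2AK3 (1.89 ± 0.08) and SEL1L (1.52 ± 0.07; GC-corrected 0.77) stayed higher in proficient cells, as between the parental lines.

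Other genes of these pathways were counted likewise. Their lists were chosen with earlier results of these data known, so they are not an independent check of the changes above. The shares of all genes tested given above were 27.8% lower and 25.9% higher in proficient cells, and 27.0% and 28.9% in deficient cells. Of 35 further ATF4 and amino acid response genes, 31 fell and 1 rose (SHMT1, the cytosolic serine hydroxymethyltransferase, 0.67 ± 0.08) in resistant proficient cells, 20 of the 35 fell at least 2-fold, and the median was -1.08. VEGFA, the angiogenic growth factor, fell from a mean of 95.6 ± 0.205 (SD) to 18.7 ± 1.83 CPM (-2.35 ± 0.09) and SLC7A1, a cationic amino acid transporter, from 334 and 331 to 109 and 104 CPM (-1.65 ± 0.07). In deficient cells 19 of the 35 fell and 9 rose (median -0.22; GC-corrected over 33 genes 14, 9 and -0.04). Of all genes, 24.03% were lower and 33.96% higher in deficient cells GC-corrected. STC2, a secreted stress-induced glycoprotein, rose there from 307 and 298 to 669 and 554 CPM (1.02 ± 0.08) and GPT2, a mitochondrial transaminase, by 0.73 ± 0.07. There SLC38A2, a neutral amino acid transporter, changed by -0.95 ± 0.07 (GC-corrected -0.59) and WARS1, tryptophanyl-tRNA synthetase, by -0.68 ± 0.06. The list holds 11 aminoacyl-tRNA synthetase genes, of which 11 fell in proficient cells (median -0.84, range -1.26 to -0.34) and 9 fell in deficient cells with none called higher (median -0.41).

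Of 32 further genes of the unfolded protein response and ER quality control, 13 fell and 4 rose in resistant proficient cells (median -0.14; GC-corrected 12, 7 and -0.05). In turn, 16 fell and 8 rose in resistant deficient cells (median -0.16; GC-corrected 13, 9 and -0.08). The GC-corrected shares of all genes were 29.99% lower and 31.98% higher in proficient cells, and 24.03% and 33.96% in deficient cells. CREB3L2 (-0.98 ± 0.07), a membrane-bound transcription factor, and HYOU1 (-0.71 ± 0.07), an ER chaperone, fell in proficient cells. There P4HB (0.85 ± 0.09), a disulfide isomerase, and MBTPS1 (0.85 ± 0.06), a protease that cleaves ATF6, rose. In deficient cells WFS1 (2.10 ± 0.18), an ER membrane protein, and MBTPS1 (0.61 ± 0.06) rose, and SEC24D (-1.37 ± 0.08), a coat protein of ER export, and EDEM3 (-1.24 ± 0.10), a relative of EDEM1, fell. Of 15 further regulators of eIF2 phosphorylation and eIF2B subunits, 8 fell and 3 rose in proficient cells, among them EIF2S2 (-0.78 ± 0.07), the beta subunit of eIF2, and EIF2B1 (0.29 ± 0.07), a subunit of its exchange factor. In deficient cells 6 fell and 1 rose, a balance that GC correction turned to 3 and 6. GC-corrected, more of all genes were likewise called higher than lower in deficient cells. Whether these regulators differed from that background was not tested. DELE1, which relays mitochondrial stress to HRI, was the 1 that rose in the uncorrected fit there (1.17 ± 0.10) and also rose in proficient cells (0.39 ± 0.10). PPP1R15B, which ends eIF2alpha phosphorylation in unstressed cells, fell in deficient cells (-1.12 ± 0.08), and EIF2B3 fell in both (-0.74 ± 0.08 and -0.62 ± 0.08).

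Exons of at least 13 of the 39 genes overlap those of another gene in the count table (ALDH1L2, ATF5, CANX, CEBPB, DDIT3, DNAJB9, EIF2AK1, EIF2AK2, HSP90B1, MTHFD2, PDIA6, SHMT2 and VLDLR). Partners were matched by their GENCODE symbol, so one listed under another symbol was not counted, such as MARS1 (there MARS) beside DDIT3. ASNS, whose readthrough gene is named above, is not among the 13. Without a stated strand setting reads of such partners cannot be told apart. Every number here is a messenger level, and neither eIF2alpha phosphorylation nor ATF4 protein was measured.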

How the data were processed

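RNA-seq reads per gene were analysed for 8 libraries of 4 groups, each assigned from its title. The title of resistant deficient replicate 2 spells the line prefix differently (Olred for Olres), and its cell line label names Olres-UWB1.289. The values are whole read counts per gene symbol as deposited by the authors. Per the submitters' processing notes, Trimmomatic 0.39, featureCounts, Subread 2.0.1, DESeq2 1.24.0 and build GRCh37 were used. For annotation, strand setting and handling of shared reads, the sources used here give nothing, and 0 per-sample columns were left unused. The libraries held 24094821 to 34394107 counts.

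A quasi-likelihood fit in edgeR 4.0.16 (R 4.3.3) used TMM factors and the 16221 genes kept by filterByExpr, with all 8 libraries in 1 fit and 4 residual degrees of freedom. P-values were adjusted by Benjamini-Hochberg over all genes tested, with a threshold of 0.05. CPM was computed from the TMM-scaled totals. Levels by arm used log2 CPM with a prior count of 2. GC content came from the longest GENCODE transcript of each gene. Promoter windows came from RefSeq. The members, lists and tests were chosen with earlier results of these data known. Every member may be named. Values in every library are given for ATF4, DDIT3, ERN1, XBP1, EIF2AK3, HSPA5 and the 3 genes of smallest p per resistance comparison in the ATF4 arm, chaperones, degradation genes and kinases. Values of other members were chosen after they were seen. Of the further lists, the 2 genes per direction with the smallest p may be named. No replicate pair was alike within sampling noise (chi-square per degree of freedom 4.21 to 22.5).

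Alternatives were RLE factors, totals alone, no filter, a minimum of 1 CPM in 2 libraries, the Wald test of DESeq2 1.42.0, fits of only the groups compared, a block for the replicate number, fits without each library, a GC trend removed per library (natural spline, 5 degrees of freedom, 15549 genes), and the chaperones joined with the degradation genes. The fit was tested on simulated data. In the deficient comparison (15792 genes), 41.8% of genes changed by 0.5, 85.1% changed by 1 and 100% changed by 2 on the log2 scale were recovered. In the proficient comparison (15801 genes) these were 43.3%, 83.6% and 100%. Only 67, 67 and 66 genes were changed at these sizes, far fewer than the genes called in the data. The adjusted threshold was therefore stricter in the simulation, and these rates do not measure recovery in the data.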

Additional observations from a re-analysis of the deposited data

Results flagged for a closer look

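The resistance effect differed between the BRCA1-proficient and BRCA1-deficient background for 30 of the 39 genes, by edgeR's test of the difference itself, with p adjusted over all genes. Of all genes tested, 25.3% lay below and 21.4% above 0. Values are the log2 effect in proficient minus that in deficient cells. In the ATF4 arm the difference was -2.49 for ATF3, -2.28 for SLC7A5, -2.14 for CHAC1, -1.90 for ASNS, -1.86 for ALDH1L2, -1.84 for TRIB3, -1.75 for SLC3A2, -1.71 for PPP1R15A, -1.48 for DDIT4, -1.38 for MTHFD2, -1.27 for ATF5, -1.02 for SHMT2, -0.83 for DDIT3, -0.75 for SESN2, -0.52 for PSAT1 and -0.47 for CEBPB, and 2.63 for VLDLR. GC-corrected, CHAC1 was at -1.33, TRIB3 at -1.22 and ATF5 at -0.73, still past the threshold, while CEBPB turned to 0.72 and SESN2 did not pass at -0.27. CEBPB also did not pass without parental deficient replicate 2 (-0.40), parental proficient replicate 1 (-0.40) or resistant proficient replicate 2 (-0.37), nor SESN2 without parental deficient replicate 2 (-0.57), parental proficient replicate 2 (-0.63) or resistant proficient replicate 2 (-0.51).

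Among sensors and kinases the difference was -1.85 for ERN1, 1.05 for EIF2AK2, 0.50 for EIF2AK1 and 0.42 for EIF2AK3, the last not passing GC-corrected (0.23). Among ER chaperones it was 1.19 for HSP90B1, 0.72 for CALR, 0.45 for PDIA4, 0.32 for PDIA6, -0.55 for CANX, -0.90 for DNAJB9 and -1.28 for SDF2L1, and GC-corrected PDIA6 (0.15) and SDF2L1 (-0.14) did not pass. Among degradation genes it was -0.92 for HERPUD1 and -0.53 for EDEM1.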

How the results depend on the processing

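Calls kept under every alternative run numbered 22 of 28 for resistance in deficient cells, 28 of 32 in proficient cells, 28 of 34 between parental lines, 22 of 31 between resistant lines and 25 of 30 for the difference of effects. The GC correction ended or turned 5, 1, 3, 8 and 5 calls in that order, and the other settings together 3, 4, 6, 2 and 2. In deficient cells it turned PSAT1 (0.047), SLC3A2 (-0.27), DNAJB9 (0.043) and SDF2L1 (-0.034) and moved the ATF4-arm and chaperone medians to -0.33 and -0.43. In proficient cells it gave 5 genes higher rather than 3, where GC-corrected 32.0% of all genes were higher, and a chaperone median of -0.18. Between parental lines it turned EIF2AK1 (-0.0017), ATF4 (0.16), CHAC1 (0.46), PSAT1 (-0.26) and SHMT2 (0.095), with a chaperone median of -0.33. Between resistant lines it turned EIF2AK2 (-0.0095), ATF4 (0.52), ATF3 (-0.34), TRIB3 (1.14), SESN2 (0.77), PPP1R15A (0.88), ATF6 (-0.053), DNAJB9 (-0.28), PDIA6 (-0.20), CANX (-0.29), HERPUD1 (-0.15) and the chaperone median (-0.091), with an ATF4-arm median of -0.59. For the difference of effects it turned CEBPB (0.72) and gave medians of -1.02 and 0.055. It shifted the median of all genes by -0.10 between parental and -0.17 between resistant lines. The cause was not tested.

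Other settings moved medians without turning them, except where noted. The ATF4-arm median with library totals alone was -1.16 for resistance in proficient cells and 0.42 between parental lines, and with at least 1 CPM in 2 libraries 0.42 between parental lines and -1.26 for the difference. The chaperone median with totals alone was -0.17 (proficient cells), -0.18 (parental lines) and 0.30 (difference), with at least 1 CPM -0.18, -0.17 and 0.31, with no filter -0.14 (parental lines) and 0.30 (difference), and with the 2 groups alone -0.14 (parental lines). Joined with the degradation genes it was -0.35 (proficient cells), 0.20 (difference) and 0.72 (parental lines, turned from -0.10, since all 3 added genes were higher). With each library left out, the ATF4-arm median ranged from -0.21 to -0.056 (deficient cells), -1.25 to -1.08 (proficient cells), 0.41 to 0.51 (parental lines), -0.41 to -0.32 (resistant lines) and -1.30 to -1.16 (difference). The chaperone median ranged from -0.56 to -0.47, -0.28 to -0.18, -0.15 to -0.078, 0.36 to 0.48 and 0.20 to 0.42, in the same order, and the genes above 0 in the difference from 8 to 13.

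No label ties the same replicate number across groups, so no pairing was assumed. Same-numbered deviations correlated at 0.121 in the deficient and -0.0952 in the proficient background, -0.0523 between parental and 0.212 between resistant lines. With the replicate number as a block, 28 genes were called in deficient and 33 in proficient cells, against 28 and 32 without it. With 2 libraries a group, a gene that did not pass is not shown to be unchanged. Changes of 0.5 on the log2 scale were recovered in 41.8% and 43.3% of simulated cases. So few genes were changed there that these rates do not measure recovery in the data.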
